A study of Mus musculus with 2 samples.

Results

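The postmitotic identity factors of the spinal cord are transcription factors that newborn neurons switch on as they leave the cell cycle, and that mark the dorsal, ventral, motor or sensory class a neuron joins. The 51 genes described here were picked by symbol, by a rule that uses no measured value, from the 43346 mouse genes of each gene table. The set was, however, chosen with earlier results of these data known. They were sorted by known class into 17 dorsal, 12 ventral, 7 motor, 7 sensory and 8 broadly shared genes. Pou4f2, Pou4f3 and Phox2a, placed among the sensory genes, are best known from other cells, named below. All 51 symbols were found in both tables.

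The samples were neural tube of healthy mouse embryos of strain B6NCrl at embryonic day 13.5, with males and females pooled. There was 1 group with 2 libraries, labelled biological replicates 1 and 2, each made as total RNA-seq from 10 ng of RNA. The labels name no allele, agent or treatment and no region along the head-to-tail axis. No contrast between conditions was therefore possible, and every comparison below is between genes, between transcripts or between the 2 libraries.

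In the developing cord, progenitor domains stacked from dorsal to ventral each give rise to a class of neurons. Dorsal classes relay or modulate touch, pain and temperature, ventral interneurons shape locomotion, and motor neurons leave the cord to reach muscle. Sensory neurons of the ganglia beside the cord derive from the neural crest and share several of these factors, including Isl1 and Pou4f1. LIM-homeodomain proteins such as Isl1, Lhx1 and Lhx3 act in combinations, joined by the cofactor Ldb1.

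The libraries held 34125110 and 22311849 estimated reads in replicates 1 and 2, of which 32151162 and 21084234 fell on mouse genes. Members took 0.214% and 0.216% of those gene counts. Of 8 progenitor markers 7 reached 1 TPM (a level scaled for transcript length and for the library's total) in both libraries, and Sox1 lay below it at 0.72 and 0.86 TPM. Of 10 midbrain and hindbrain genes 4 did, and En2 had 0 counts in both libraries. Otx2 of that list was called higher in replicate 2 by the test given below, with 1 and 24 counts. Markers of other cells were present too: all 10 mesenchyme, all 10 endothelial and all 8 macrophage genes reached the level, as did 7 of 8 muscle and 8 of 10 erythroid genes. Muscle genes differed between the libraries, with 7 of 8 called higher in replicate 2 by the test given below. Their summed level was 124 against 217 TPM in replicates 1 and 2. Over all 17428 genes tested, 392 (2.25%) were called in either direction. In bulk tissue a low level from fewer cells of a type and one from less RNA per cell cannot be told apart.

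Most of the identity factors were present at E13.5. At 1 TPM or more in both libraries, 44 of the 51 genes (86.3%) were detected, against 13263 of 21474 named protein-coding genes (61.8%). Phox2a and Mafa reached 1 TPM in 1 library each, and Onecut3, Sim1, Tlx1, Evx2 and Vsx1 in neither. Detected members were not abundant genes as a set: their median was 8.36 TPM, against 18.5 TPM over all detected protein-coding genes. Members summed to 1057 and 1071 TPM in replicates 1 and 2, and the 5 highest genes held 50.99% and 49.35% of these sums. Of the 50 pairs of neighbours in the order of mean level, 18 were separated, meaning that both values of the higher gene lay above both values of the lower one. With 2 values against 2, the smallest exact two-sided permutation p is 0.333, so order is given as a description.

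**Figure D1:**
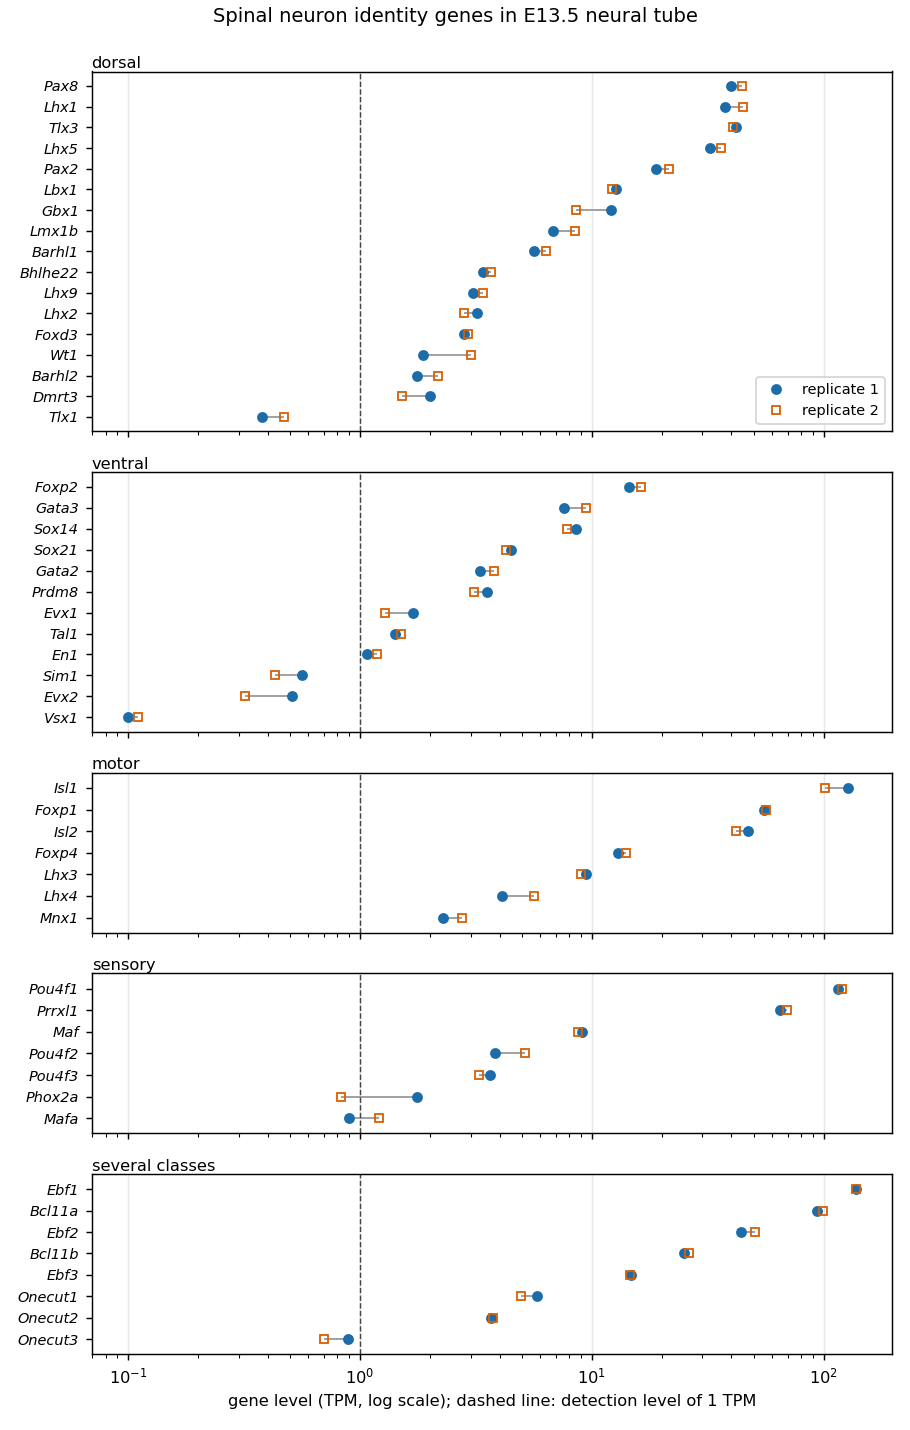
Level of each of the 51 genes in TPM (log axis) in replicate 1 (filled circles) and replicate 2 (open squares), by class, with a grey line joining the 2 values and a dashed line at 1 TPM. Ebf1, Pou4f1 and Isl1 lie above 100 TPM in both libraries, while Vsx1, the lowest gene, lies near 0.1 TPM.

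Class sums were unequal. The 8 shared genes summed to 332 ± 8.86 TPM (SD, n = 2), the 7 motor genes to 245 ± 19.4 TPM, the 17 dorsal genes to 235 ± 11.4 TPM, the 7 sensory genes to 204 ± 7.02 TPM and the 12 ventral genes to 48.5 ± 1.70 TPM. Ventral interneuron genes thus held 4.56% ± 0.118 of the summed level, the smallest of the 5 shares. These shares depend on the grouping: with each gene counted in every class it is known in, ventral genes held 26.9%, motor 29.8%, sensory 64.7% and dorsal 82.2% of the members' sum. Motor and dorsal sums were not ordered, with motor at 258 and 231 TPM and dorsal at 227 and 243 TPM in replicates 1 and 2. Each sum rested on few genes, since the median gene stood at 20.2 TPM among the shared, 13.5 TPM among the motor, 6.01 TPM among the dorsal, 4.495 TPM among the sensory and 2.40 TPM among the ventral genes.

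Among motor genes Isl1 led. Isl1 (chr13:116298281-116309689, minus strand, mm10), a LIM-homeodomain factor of motor neurons, dorsal interneurons and sensory neurons, stood at 127 and 101 TPM in replicates 1 and 2. Its paralog Isl2 stood at 47.0 and 42.1 TPM, so that Isl1 exceeded Isl2 by 2.55 ± 0.216 times (SD, n = 2). Foxp1, which defines limb-innervating motor columns, was measured at 55.4 and 56.3 TPM, between Isl1 and Isl2. Foxp4, a related forkhead factor, reached 12.9 and 14.1 TPM. The factors most restricted to motor neurons and their V2 relatives were lower. Lhx3, which with Isl1 specifies motor neurons, was at 9.41 and 8.97 TPM. Lhx4, its paralog, was at 4.10 and 5.65 TPM. Mnx1, a homeobox factor that consolidates motor neuron fate, was the lowest motor gene at 2.29 and 2.76 TPM (111 and 85 counts). Isl1 lay 46.1 ± 13.4 times above Mnx1, and the values of the 7 motor genes did not overlap between neighbours. All 8 genes of a list of motor neuron genes, which includes Isl2, were detected, among them Slc18a3, the vesicular acetylcholine transporter, at 22.6 and 25.6 TPM and Chat, choline acetyltransferase, at 2.41 and 3.24 TPM.

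The transcripts of Isl1 differ by a block of coding sequence, shown because it is how the main protein-coding forms of the highest motor gene differ. Isl1-201 took 77.3% and 88.6% of the gene's TPM in replicates 1 and 2. Isl1-202 took 13.5% and 10.2%, and it lacks 69 coding bases (23 codons) that Isl1-201 carries at chr13:116301710-116301778 on the minus strand. In the line below, from the GENCODE M21 transcript on GRCm38 (mm10), capitals mark the block and lower case the 20 coding bases on either side.

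Isl1-201: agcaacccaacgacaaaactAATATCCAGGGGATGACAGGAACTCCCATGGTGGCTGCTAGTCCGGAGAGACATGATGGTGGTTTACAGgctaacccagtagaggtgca

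Both libraries placed the longer form first. A retained-intron transcript, Isl1-203, was given 133 counts in replicate 1 and 0 in replicate 2, with a posterior SD of 34.9 counts in the former. Without non-coding types, Isl1 stood at 115 and 99.9 TPM.

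Lhx3 has alternative first coding exons, printed because the libraries disagreed on which form led. Lhx3-201 took 39.98% in replicate 1 and 21.4% in replicate 2, and Lhx3-202 took 35.9% and 46.9%. These shares rest on 181 and 58.5 counts for Lhx3-201 and 159 and 126 counts for Lhx3-202. The retained-intron form Lhx3-203 took another 17.6% and 27.0%. Capitals mark the 94 first coding bases particular to Lhx3-201 (chr2:26206345-26206438) and the 88 particular to Lhx3-202 (chr2:26208102-26208189), both on the minus strand of mm10, and lower case the first 20 bases that the forms share.

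Lhx3-201: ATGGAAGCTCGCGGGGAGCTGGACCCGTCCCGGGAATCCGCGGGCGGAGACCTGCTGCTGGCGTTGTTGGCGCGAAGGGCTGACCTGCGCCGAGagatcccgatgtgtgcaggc
Lhx3-202: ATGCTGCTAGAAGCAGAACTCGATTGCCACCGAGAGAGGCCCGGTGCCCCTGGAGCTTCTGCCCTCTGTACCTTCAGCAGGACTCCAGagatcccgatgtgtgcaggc

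The forms therefore start differently and join the same reading frame. Among other motor genes, Isl2-201 took 78.7% and 72.9% of its gene and the nonsense-mediated decay form Isl2-202 took 12.8% and 22.2%. For Lhx4, Lhx4-201 took 67.4% and 71.3% and Lhx4-202 the rest. Foxp1 was divided over 32 transcripts, led by the protein-coding Foxp1-225 at 45.1% and 42.8% and Foxp1-204 at 19.3% and 22.6%. GENCODE M21 names 1 of the 32, at 0.4% and 1.64%, for the overlapping gene Gm20696. In Foxp4 the leading transcript was a retained intron of 365 bases, Foxp4-208, at 31.8% and 32.3%, on only 24.8 and 17.4 counts. The protein-coding Foxp4-202 followed at 21.2% and 30.7%.

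Dorsal genes were led by inhibitory and excitatory markers alike. Pax8, a paired-box factor of inhibitory interneurons, was at 39.9 and 44.3 TPM. Lhx1, expressed in several inhibitory dorsal and ventral classes, was at 37.6 and 44.9 TPM. Tlx3, a selector of the excitatory fate in the dorsal horn, was at 41.9 and 40.5 TPM. These top dorsal genes overlapped and cannot be ordered. Lhx5, the paralog of Lhx1, was just below them at 32.4 and 36.0 TPM, and the antisense gene Gm27199, which overlaps it by 69 bases, stood at 23.0 and 24.0 TPM. Pax2, which keeps the inhibitory fate with Pax8, was at 19.0 and 21.5 TPM. The ratio of Pax8 to Pax2 was 2.08 ± 0.0266 (SD, n = 2), or 1.60 ± 0.121 without non-coding types, where Pax8 stood at 32.1 and 32.7 TPM.

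Other dorsal genes mark several dorsal interneuron classes. Lbx1, a homeobox factor found in part of the dorsal classes, was at 12.7 and 12.2 TPM. Gbx1, a homeobox factor of dorsal horn neurons, was at 12.1 and 8.54 TPM. Lmx1b, which acts with Tlx3 in excitatory neurons, was at 6.81 and 8.43 TPM. The set for the most dorsal class was low but present. Barhl1 reached 5.66 and 6.36 TPM and Barhl2 1.76 and 2.17 TPM. Lhx9 reached 3.06 and 3.38 TPM and Lhx2 3.21 and 2.80 TPM, and these overlapped, with a ratio of 1.08 ± 0.180. Foxd3, of an early dorsal class and of neural crest, was at 2.80 and 2.92 TPM. Bhlhe22, a basic helix-loop-helix factor of dorsal horn interneurons, was at 3.39 and 3.68 TPM. The pair that marks commissural inhibitory neurons of the most ventral dorsal class was near the lower end: Wt1 at 1.88 and 3.02 TPM, and Dmrt3 at 2.01 and 1.52 TPM. Tlx1, the paralog of Tlx3, was the 1 dorsal gene under the level, at 0.38 and 0.47 TPM on 17 and 12 counts. Tlx3 exceeded it by 98.1 ± 17.0 times, or 69.2 by the posterior mean estimate.

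Pax2 carries a block of the same length as that of Isl1, shown because both forms were substantial. Pax2-203 took 47.3% and 42.8%, Pax2-201 took 34.0% and 37.7%, and Pax2-202 took 18.7% and 19.5% of the gene's TPM. Pax2-201 contains 69 bases at chr19:44796628-44796696 (plus strand, mm10) that Pax2-203 lacks. The coding sequences are 1251 bases in Pax2-201 and 1185 in Pax2-203, so this block is not their only coding difference. Capitals mark that block, with 20 coding bases of Pax2-201 on either side.

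Pax2-201: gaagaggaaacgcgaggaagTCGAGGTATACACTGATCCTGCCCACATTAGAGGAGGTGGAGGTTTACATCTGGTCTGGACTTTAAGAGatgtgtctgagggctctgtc

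The order of the 3 transcripts was the same in both libraries, and no non-coding type was annotated for the gene. Pax8-201 held 68.8% and 67.8% of Pax8, with the retained introns Pax8-205 at 7.63% and 15.3% and Pax8-206 at 11.3% and 10.6%. Lower dorsal genes were less settled. In Barhl1, Barhl1-201 and Barhl1-203 took 32.8% and 32.7% in replicate 1 and 28.9% and 32.8% in replicate 2, and the processed transcript Barhl1-205 took 25.1% and 23.1%. In Lhx9 the leading form was Lhx9-202 at 28.8% in replicate 1 and Lhx9-205 at 25.2% in replicate 2. For Lhx2, Lhx2-201 led at 58.6% and 67.6%, while the next was Lhx2-205 at 26.3% in replicate 1 and Lhx2-203 at 32.4% in replicate 2. Wt1 was led by Wt1-205 at 39.3% in replicate 1 and by Wt1-202 at 47.7% in replicate 2, on 49.9 and 48.3 counts.

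Ventral interneuron genes were low. Foxp2, found in a subset of V1 inhibitory neurons, was the highest at 14.5 and 16.4 TPM. Gata3, of the inhibitory V2b class, was at 7.56 and 9.45 TPM, and Gata2, which precedes it, at 3.31 and 3.80 TPM. Tal1, their partner, was at 1.41 and 1.51 TPM. Gata2 and Tal1 also act in blood and vessel cells, so these levels stand beside the whole lists. The 10 endothelial genes were all detected, with sums of 249.9 and 255.3 TPM and values from 6.57 to 73.1 TPM in single genes. The 10 erythroid genes summed to 10027.7 and 10263.5 TPM, mostly globin, while the erythroid factors Gata1 and Klf1 stood at 0.54 and 0.43 TPM and at 0.68 and 0.68 TPM. The part of these cells in Gata2 and Tal1 was not tested.

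Both Sox genes were detected. Sox14, a V2b factor, reached 8.59 and 7.84 TPM and Sox21, a related repressor, 4.49 and 4.27 TPM, with a ratio of 1.87 ± 0.0545. Prdm8, a PR-domain zinc-finger protein of spinal interneurons, was at 3.53 and 3.10 TPM. Evx1, which marks part of the V0 class, was at 1.69 and 1.28 TPM, and its antisense transcript Evx1os at 1.76 and 1.44 TPM. En1, which marks V1 neurons, was at 1.07 and 1.19 TPM. At the bottom, Sim1 of the V3 class was at 0.56 and 0.43 TPM, Evx2 at 0.51 and 0.32 TPM, and Vsx1, of V2 precursors, at 0.10 and 0.11 TPM. Vsx1 had 8 and 6 counts, and exact Poisson 95% limits of 0.0432 to 0.197 TPM and 0.0404 to 0.239 TPM. Evx1 lay above Evx2 by 3.66 ± 0.485 times.

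Transcripts of several ventral genes were shared between forms. Foxp2 was led by Foxp2-201 at 35.5% in replicate 1 and by Foxp2-207 at 41.3% in replicate 2, with the other of the pair at 34.8% and 30.4%. Gata2-202 led in replicate 1 at 55.4% and Gata2-201 in replicate 2 at 60.9%. Gata3-201 held 90.3% and 81.5%, with the processed transcript Gata3-204 at 7.16% and 18.5% on 3 and 6.15 counts. Sox14-202 took 2.63% in replicate 1 and 21.4% in replicate 2.

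Sensory-class genes were headed by Pou4f1. Pou4f1 (chr14:104461676-104467999, minus strand), a POU-homeodomain factor of sensory and dorsal interneurons, was at 115 and 121 TPM. Its protein-coding level was lower than that. The 799-base processed transcript Pou4f1-202 took 69.4% and 68.6% of the gene's TPM with 26.7% and 26.1% of its counts, and the 4445-base protein-coding Pou4f1-201 stood at 35.2 and 37.8 TPM. Without non-coding types Pou4f1 was therefore 9th, not 2nd, in the order of members. Prrxl1, a homeobox factor of nociceptive sensory and dorsal horn neurons, was at 65.1 and 69.5 TPM with 88.2% and 90.0% in Prrxl1-204. Its level did not overlap that of Pou4f1 in either direction, being below Pou4f1 over all transcripts and above it without non-coding types.

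**Figure D2:**
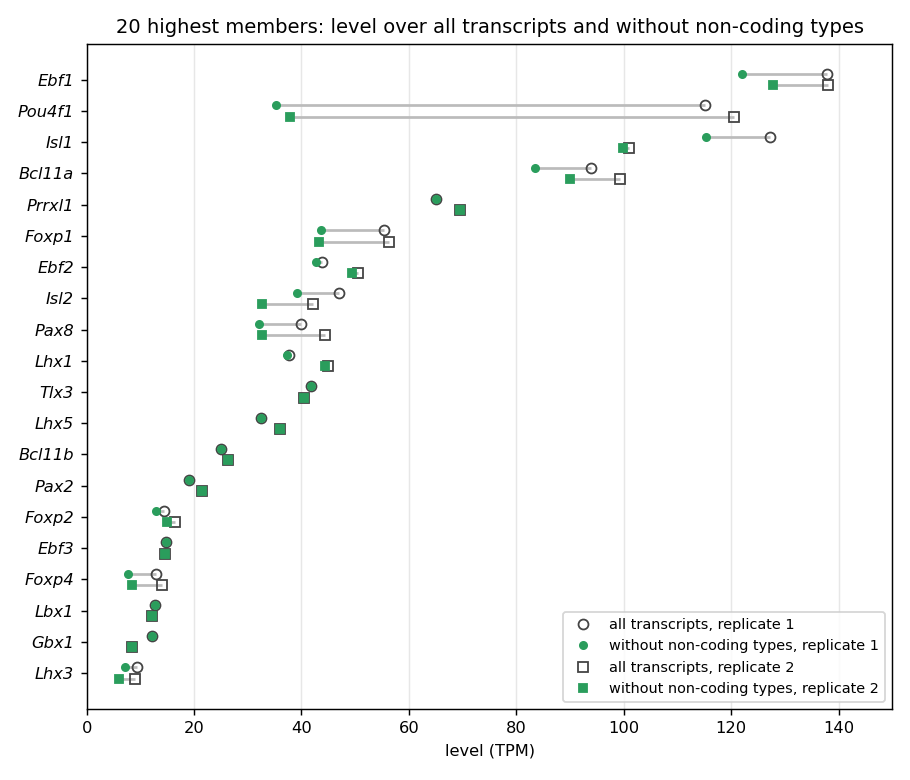
Level in TPM of the 20 highest genes over all transcripts (open symbols) and without transcripts of a non-coding type (filled green), with circles for replicate 1 and squares for replicate 2 joined by grey lines. Pou4f1 falls from 115 and 121 to 35.2 and 37.8 TPM, the widest gap shown, whereas Tlx3, Lhx5 and Lbx1 have a single transcript each and do not move.

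The paralogs were far lower. Pou4f2, best known from retinal ganglion cells, was at 3.82 and 5.17 TPM. Pou4f3, best known from hair cells of the inner ear, was at 3.64 and 3.27 TPM. Pou4f1 exceeded Pou4f2 by 26.7 ± 4.82 times and Pou4f3 by 34.2 ± 3.71 times over all transcripts. Those ratios were 8.27 ± 1.35 and 10.6 ± 1.33 without non-coding types. Maf, of mechanoreceptors and dorsal horn neurons, was at 9.10 and 8.76 TPM, divided as 61.4% and 62.0% for Maf-202 and the rest for Maf-201. Mafa, its relative in touch neurons, was at 0.90 and 1.21 TPM on 20 and 17 counts. Phox2a, a homeobox factor best known for noradrenergic neurons, was at 1.76 and 0.83 TPM.

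Broadly shared genes included the highest of all. Ebf1 (chr11:44617317-45008091, plus strand), a helix-loop-helix factor of newly born neurons, was at 138 TPM in both libraries and above every other gene of the set. Ebf2 and Ebf3 followed at 43.8 and 50.6 TPM and at 14.8 and 14.6 TPM. The 3 Ebf genes did not overlap, with Ebf1 over Ebf2 at 2.94 ± 0.297 and Ebf2 over Ebf3 at 3.22 ± 0.356. Bcl11a, a zinc-finger factor of dorsal horn and sensory neurons, was at 93.8 and 99.3 TPM and Bcl11b, its paralog, at 24.9 and 26.3 TPM. Their ratio was 3.77 ± 0.00655. Onecut1, a cut-homeobox factor of motor neurons and Renshaw cells, was at 5.83 and 4.96 TPM, Onecut2 at 3.68 and 3.76 TPM, and Onecut3 at 0.89 and 0.70 TPM. The Onecut genes were separated in that order.

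Bcl11b is shown because both of its forms were substantial and differ by a block of coding sequence. Bcl11b-201 took 60.8% and 63.9% and Bcl11b-203 took 39.2% and 36.1% of the gene's TPM. The shorter form lacks 216 coding bases (72 codons) at chr12:107965672-107965887 (minus strand, mm10). Capitals mark them, between 20 coding bases of Bcl11b-201 on either side.

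Bcl11b-201: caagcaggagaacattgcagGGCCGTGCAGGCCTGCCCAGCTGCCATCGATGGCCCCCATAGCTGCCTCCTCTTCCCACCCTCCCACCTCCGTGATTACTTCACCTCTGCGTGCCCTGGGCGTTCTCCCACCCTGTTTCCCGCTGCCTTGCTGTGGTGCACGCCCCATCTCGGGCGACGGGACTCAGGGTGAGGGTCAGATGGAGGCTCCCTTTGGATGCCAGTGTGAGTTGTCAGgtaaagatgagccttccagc

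The block leaves the reading frame intact, and no library favoured the shorter form. Bcl11a was split over the short protein-coding Bcl11a-204 at 49.4% and 46.5%, Bcl11a-202 at 29.3% and 32.2%, Bcl11a-201 at 10.4% and 9.62% and the retained intron Bcl11a-205 at 10.3% and 9.17%. Ebf1-202 held 65.2% and 64.8% of Ebf1 and Ebf1-201 held 18.2% and 21.9%. Ebf2-203 led Ebf2 with 58.3% and 62.1%, followed by Ebf2-202 at 32.5% and 30.6%. Ebf3-201 held 78.4% and 86.6%. The Onecut2 transcripts are 13391 and 13389 bases long, and their posterior SD was 245 counts in replicate 1, so their shares of 64.7% and 37.7% for Onecut2-201 are uncertain.

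Transcript choice agreed between the libraries for most genes. Of the 51 genes, 33 have several annotated transcripts, and 31 of those were detected. The same transcript led in both libraries for 24 of 31, and Foxp2, Lhx3, Barhl1, Onecut2, Gata2, Lhx9 and Wt1 were the exceptions. A second transcript took 10% or more, on average, in 24 of 31. The leading transcript was protein-coding in 29, a processed transcript in Pou4f1 and a retained intron in Foxp4. Non-coding types took 10% or more in both libraries in Pou4f1, Foxp1, Isl2, Pax8, Foxp4, Lhx3 and Barhl1.

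**Figure D3:**
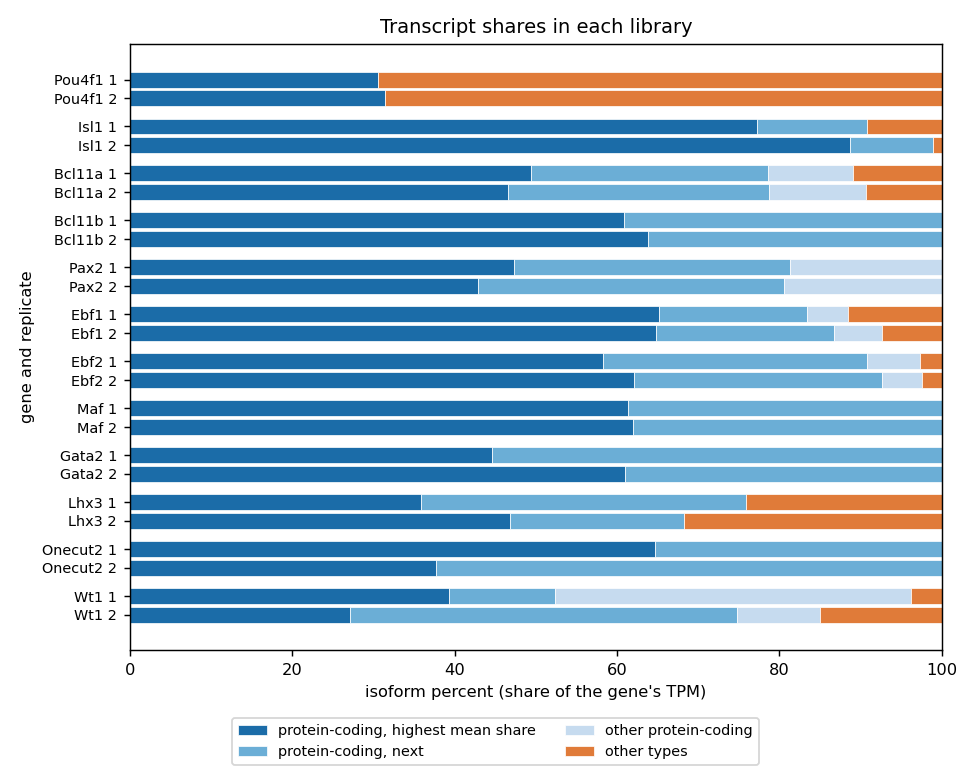
Isoform percent (share of the gene's TPM) in replicates 1 and 2 of 12 genes, stacked from the protein-coding transcript of highest mean share (dark blue) through the next (mid blue) and other protein-coding forms (pale blue) to other types (orange). Pou4f1 is mostly orange in both libraries, Pax2 and Bcl11b keep their divisions, and Gata2 and Onecut2 change theirs. In Onecut2 the transcript with no type in the annotation is drawn with the protein-coding ones.

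Counts of each gene in the 2 libraries were set against each other by an exact binomial test (two-sided), with Benjamini-Hochberg adjustment over the 17428 genes whose mean count reached 10. Only counting noise enters it, not variation between litters. Of 50 members tested, 1 passed an adjusted p under 0.05 with at least a 2-fold difference, against 392 genes (2.25%) over all. That member was Phox2a (chr7:101818313-101822726, plus strand), with 60 and 18 counts, a log2 ratio of -1.11 ± 0.38 (SE) for replicate 2 over replicate 1, and an adjusted p of 0.014 by the exact binomial test. Its end overlaps Inppl1 on the opposite strand by 95 bases, and Inppl1 stood at 5.31 and 6.90 TPM.

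At any fold, 9 members (18%) had an adjusted p under 0.05, against 4279 genes (24.6%) over all tested. Higher in replicate 2 were Lhx4, Pou4f2, Lmx1b, Ebf2 and Lhx1, with log2 ratios of 0.47, 0.38, 0.24, 0.17 and 0.13. Lower were Phox2a, Gbx1, Isl1 and Isl2. Gbx1 had 925 and 413 counts, a log2 ratio of -0.56 ± 0.085 (SE) and an adjusted p of 5.7e-10 by the exact test. Isl1, on 5977 and 3294 counts, had -0.26 ± 0.031 and an adjusted p of 3.5e-15 by the exact test, and Isl2 had -0.22 ± 0.058. The median size of the log2 ratio was 0.13 over members and 0.14 over all genes tested.

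Sensory ganglion genes were mostly lower in replicate 2, as were Isl1 and Isl2. Of the 10 genes of that list, 8 were lower in replicate 2. All 8 passed an adjusted p under 0.05 by the exact binomial test, and 1 passed in the other direction. Over all genes tested, 24.6% passed in either direction. Trpv1 was the 1 gene of the list called at 2-fold, against 2.25% over all genes tested. The list summed to 401 and 302 TPM, its lowest gene was Runx3 at 1.31 and 1.47 TPM, and none was at 0. Prdm12 of this list also stands among the other spinal factors below. Prph, an intermediate filament gene of sensory and motor neurons, was at 268 and 198 TPM. It belongs to the list of 8 motor neuron genes. Of those, 2 passed the adjusted threshold lower in replicate 2 and 2 higher. Pou4f1 and Prrxl1, which sensory neurons also express, did not pass, with log2 ratios of 0.03 and 0.03. The part of sensory tissue in the differences of Isl1, Isl2 and Phox2a was not tested.

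**Figure D4:**
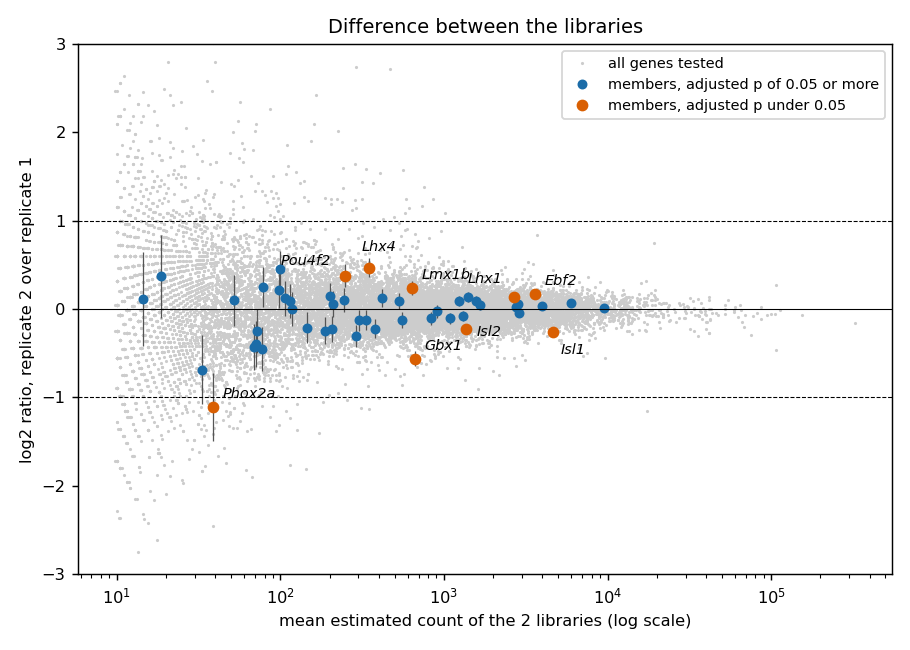
Log2 ratio of replicate 2 over replicate 1 against the mean estimated count (log axis) for 50 members (blue, or orange where the adjusted p is under 0.05, with bars for the counting SE) over all 17428 genes tested (grey), with dashed lines at 2-fold. Phox2a is the only member beyond a dashed line, and 34 genes lie beyond the axis limits.

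Cofactors and further factors of the same pathways had median levels of 50.5 TPM for LIM cofactors and 17.0 TPM for other spinal neuron factors, against 5.40 TPM for the members. All 10 LIM cofactors were detected, with Ssbp3 at 139 and 145 TPM, Ldb1, the bridging protein of LIM complexes, at 99.4 and 104 TPM, and Lmo4, which competes for Ldb1, at 58.0 and 55.5 TPM. None of the 10 was called at 2-fold. By the exact binomial test 4 had an unadjusted p under 0.05 (34.6% of all genes tested did), and 2 lower and 1 higher in replicate 2 passed the adjusted threshold at any fold. Of 26 other spinal neuron factors 24 were detected and 25 tested, and none was called at 2-fold. At an unadjusted p under 0.05 there were 8, and at the adjusted threshold 3 lower and 3 higher in replicate 2, against the 24.6% over all genes. Hmx3 and Lhx8 were under the level. Neurod6, a helix-loop-helix factor of differentiating neurons, was the highest of that list at 85.2 and 81.3 TPM.

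Overlapping annotation bears on some levels, since the sources used here do not state whether counting used strand. An opposite-strand gene overlapped 19 members, and in 5 of these (Ebf1, Lhx5, Pax2, Evx1 and Phox2a) it reached 1 TPM in both libraries. The antisense gene over Ebf1, Gm12158, stood at 5.49 and 4.59 TPM, and that over Pax2, Gm20395, at 4.64 and 2.83 TPM. Where exons of such antisense pairs share bases, reads there cannot be told apart without strand. Overlaps were taken over whole gene spans, introns included, so shared exons were not measured. On the same strand, the protein-coding gene Gm20696 overlaps Foxp1 and stood at 1.79 and 1.34 TPM.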

How the data were processed

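Deposited gene and transcript tables of 2 mouse neural tube libraries were used. The build is mm10 and the annotation GENCODE M4, per the file headers and notes. The aligner, the quantifier and the handling of strand were not given in the sources used here. The authors' deposited expected counts are estimated reads per feature, and were rounded for tests. Their deposited TPM scale abundance to a fixed sum over all features, spike-ins included. The deposited FPKM and posterior means served in alternatives, and isoform percent, also deposited, divides a gene's TPM among its transcripts. Names, transcript types and coordinates came from GENCODE M21 (GRCm38), matched on identifiers without version.

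A gene was detected at 1 TPM in both libraries. Levels without non-coding types sum the TPM of transcripts typed protein-coding, or with no type in M21. Log2 ratios, with 0.5 added to each count, and exact binomial tests used trimmed mean of M values (TMM) library sizes from edgeR 4.0.16 (R 4.3.3). The test was checked on simulated data that held counting noise alone, so the check does not cover variation between replicates. DESeq2 1.42.0 gave alternative size factors. Other steps used Python 3.11.15, pandas 2.3.3, SciPy 1.17.1 and matplotlib 3.10.9. Poisson limits at 95% cover counting error only, as no molecular identifiers are stated.

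Every member was accounted for. Values per library are given for members of 1 TPM or more and the lowest ones, transcripts where a second form took 10% or the leading one differed, and other genes only from marker and cofactor lists. The members and lists were chosen with earlier results of these data known, and the paralog pairs after their values were seen. The labels name both libraries biological replicates of one group and do not say which embryos went into each, and the p-values set the difference between these samples against counting error alone. Alternatives were other units, estimates, size factors, filters, folds and class groupings.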

Additional observations from a re-analysis of the deposited data

How the results depend on the processing

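No paired analysis was possible because there is 1 group. The 2.25% of genes called rested on the thresholds: 117 genes and 0 members were called at a mean count of 50 or more, where Phox2a is not tested, 709 genes at 1.5-fold, and 4279 genes and 9 members with no fold minimum. DESeq2 size factors, gene count totals, posterior mean counts and no count filter kept the count of genes within 1.5 times. Class shares moved without non-coding types, an alternative chosen after seeing the data, to 24.4% dorsal, 5.05% ventral, 13.6% sensory and 33.9% shared. The ventral share was 4.95% by posterior mean TPM. Counting each gene in every class it is known in gave 82.2% dorsal, 26.9% ventral, 29.8% motor and 64.7% sensory of the members' sum, so class totals depend on the grouping. Of 25 ratios between related genes, 24 were separated. Without non-coding types 12 moved by more than the SD, and by posterior mean 7 did. None of the separated ratios reversed. The same transcript led in 24 of 31 genes, 27 by posterior mean, and 25 either among protein-coding forms or by counts. Depth limits the lowest genes: 16 members had under 100 counts in a library, and with 2 libraries an SD has 1 degree of freedom.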
